A study of Sus scrofa with 20 samples.

Results

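The NR4A genes were measured in hippocampus of German Landrace pigs with 7 probe sets of the Affymetrix porcine Snowball array, which are all the probe sets of the 47845 in the value table that carry the symbol NR4A1, NR4A2 or NR4A3. They stand for 3 of 13755 genes named in the table. All 7 passed the filter on dim probe sets, which kept 23861 probe sets of 10313 genes. The family was selected on the difference between the groups that NR4A2 had shown in an earlier analysis of these arrays, so that the values by group below are a description and carry no test. The 20 adult pigs were 10 high-reactive (HR) and 10 low-reactive (LR) animals with 1 array each. Per the study's methods both groups were extremes of a backtest in early life, where piglets are held on their backs and struggling is scored, and they differed in haplotype at a coping behavior locus on the porcine chromosome SSC12. Breed, stage and tissue were the same in both groups and no treatment was named. The study's methods give the age at slaughter as an average over the animals. The sources used here give neither the sex nor the litter of the animals, nor their slaughter days or which arrays were run together. Replicate numbers below only name arrays and pair nothing.

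NR4A proteins are orphan nuclear receptors, transcription factors of the steroid receptor superfamily. Their ligand pocket is filled by bulky side chains, and their activity is set mainly by how much protein is made and how it is modified. In neurons of the rodent hippocampus their genes belong to the immediate early genes. Calcium and cyclic AMP signals reach them through CREB and MEF2 factors, and transcription starts within minutes of activity and then fades. NR4A1 and NR4A2 can pair with the retinoid X receptors and all members can bind DNA alone. In mice the family is needed for long-term memory in the hippocampus. Outside the hippocampus NR4A2 is known as a factor of midbrain dopamine neurons and as a marker of deep cortical layers, claustrum and subiculum.

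NR4A1 had 1 probe set (SNOWBALL_030807_st), NR4A2 had 2 (the first SNOWBALL_017891_st, the second SNOWBALL_029527_st) and NR4A3 had 4 (the first SNOWBALL_000096_s_st, the second SNOWBALL_000095_st, the third SNOWBALL_000097_s_st, the fourth SNOWBALL_003459_st), numbered within each gene from the brightest down. On Affymetrix arrays an "s" in the name marks probes that several transcripts share, and this holds for the first and the third NR4A3 probe sets. In the Sscrofa11.1 annotation of RefSeq, matched by symbol for 3 of 3 genes, NR4A1 lies on chromosome 5 (17403088 to 17407918) in an entry listed as a pseudogene, NR4A2 on chromosome 15 (63487051 to 63506249) and NR4A3 on chromosome 1 (241569867 to 241611735). None lies on the chromosome of the coping locus. The genome build behind the array's probes and the exons they match were not stated in these sources. Values are log2 robust multichip average (RMA) values, and a difference of 1 is a doubling of signal. Levels of different probe sets cannot be set against each other because each probe binds with its own strength.

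NR4A2 had the higher values in HR on both of its probe sets. On the first, the lowest, median and highest of the 10 HR arrays were 8.87, 9.12 and 9.35 and those of the 10 LR arrays were 8.29, 8.78 and 9.15. Every HR array lay above the LR median and 3 lay above the highest LR array, while the groups overlapped between 8.87 and 9.15. HR replicate 8 was the highest and LR replicate 3 the lowest of all arrays. The group means with their SD over 10 arrays each were 9.10 ± 0.17 and 8.76 ± 0.25, and the difference of 0.34 ± 0.09 (SE) corresponded to 1.27-fold. On the second, HR ran from 6.18 over 6.39 to 6.58 and LR from 5.68 over 6.06 to 6.46, with a difference of 0.31 ± 0.08. Again all 10 HR arrays were above the LR median, 7 of the 10 LR arrays were below the lowest HR array, and HR replicate 8 and LR replicate 10 were the highest arrays of their groups on both probe sets.

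NR4A3 gave a different group difference on each of its 4 probe sets. On the first, HR ran from 8.14 over 8.38 to 8.55 and LR from 7.97 over 8.25 to 8.51, and the difference of 0.12 ± 0.07 left the groups largely overlapping, with 2 HR arrays above the LR range. On the second, HR ran from 7.32 over 7.99 to 8.30 and LR from 7.41 over 7.63 to 8.01, with a difference of 0.29 ± 0.10 and 5 HR arrays above the highest LR array. On the third, HR ran from 7.07 over 7.93 to 8.44 and LR from 6.95 over 7.38 to 8.28, with a difference of 0.50 ± 0.16, the widest of the 7 probe sets at 1.41-fold. In both of these HR replicate 1 was the lowest HR array and LR replicate 10 the highest LR array. HR replicate 1 lay below every LR array on the second and below all but 1 on the third. On the fourth, HR ran from 6.31 over 6.51 to 6.66 and LR from 5.93 over 6.56 to 6.80, the difference of -0.00050 ± 0.10 was near 0, and the LR median was exceeded by only 2 of the 10 HR arrays.

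NR4A1 had the same mean in both groups within the spread of the arrays. HR ran from 7.09 over 7.36 to 7.64 and LR from 6.80 over 7.27 to 7.85, the means with their SD over 10 arrays each were 7.32 ± 0.18 and 7.28 ± 0.37, and the difference was 0.03 ± 0.12. The LR arrays covered all of the HR range and went past it at both ends, with LR replicates 1 and 2 (7.74 and 7.85) above every HR array and LR replicates 5, 7 and 9 (6.80, 6.81 and 6.94) below. The SD in LR was 2.08 times that in HR for NR4A1 and 2.41 times for the fourth NR4A3 probe set. The larger SD was in LR for 5 of the 7 probe sets, the exceptions being the second and the third of NR4A3 (0.722 and 0.913 times). The share of all probe sets with the larger SD in LR was not counted. Whether this spread is particular to the NR4A probe sets is therefore not known.

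**Figure D1:**
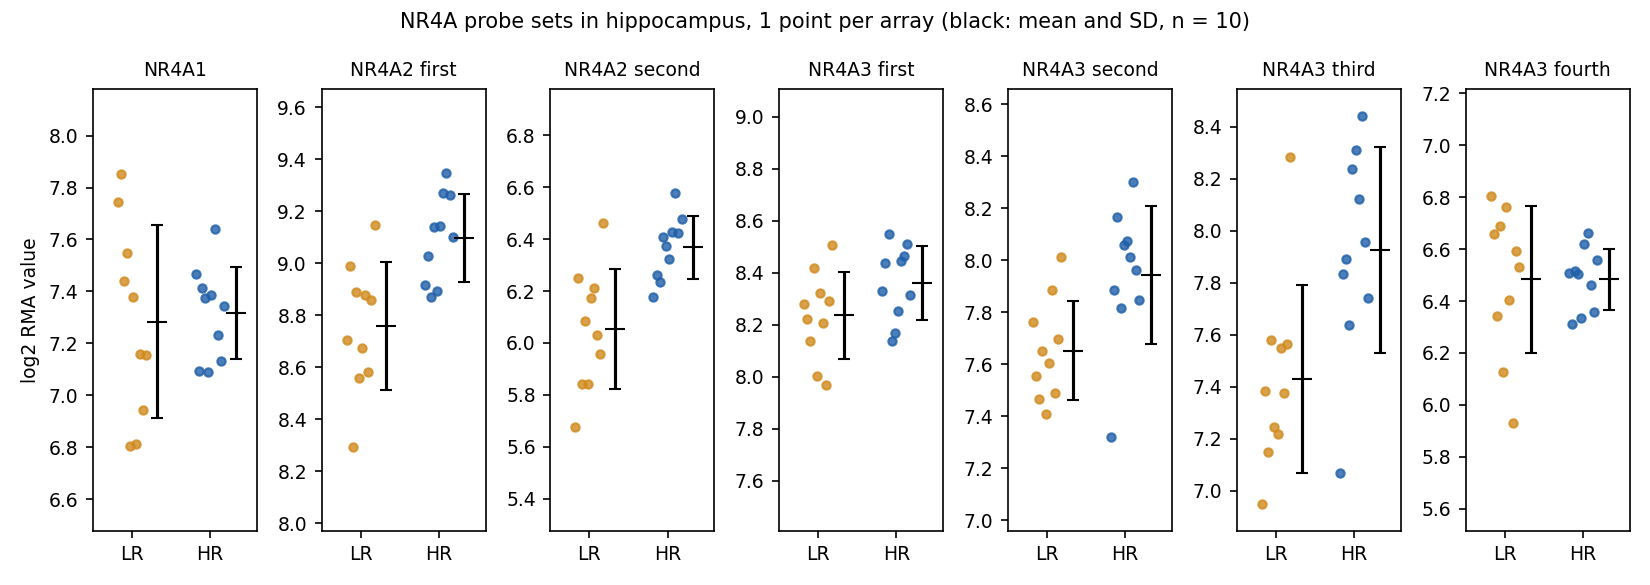
Log2 RMA value (vertical axis, scaled for each panel) of the 7 NR4A probe sets on each of the 10 LR arrays (orange) and 10 HR arrays (blue), with the mean and SD in black. Both NR4A2 panels show all HR points above the LR median, the NR4A1 panel shows LR points on both sides of the HR range, and HR replicate 1 (7.07) and LR replicate 10 (8.28) stand away from their groups in the panel of the third NR4A3 probe set.

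Of the 7 NR4A probe sets, 4 had an unadjusted p under 0.05 and a higher mean in HR in limma over all kept probe sets (both of NR4A2, the second and the third of NR4A3), against 7.78% of all probe sets tested (1857 of 23861), and 0 had one with a lower mean, against 3.74%. A total of 2 had every HR array above the LR median, against 1.27%. After Benjamini-Hochberg adjustment 0 of the 7 passed 0.05 in limma, as did 0 of all 23861 (0%), of which 2750 had an unadjusted p under 0.05. These counts are read as a description only, because the family was selected on this contrast.

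Array measures that hold no NR4A probe set also differed in mean between the groups. The number in the sample titles, whose meaning is not stated, averaged 2863 ± 109 (HR) and 2601 ± 225 (LR). The level of 24 control probe sets rich in G and C that match no pig transcript (below, the GC-rich background) averaged 7.31 ± 0.20 (HR) and 7.50 ± 0.20 (LR), each with its SD over 10 arrays. Markers of dentate granule cells (5 of 7 listed genes measured: PROX1, STXBP6, C1QL2, C1QL3 and NEUROD1) had a mean level of 8.01 to 8.41 in HR and 7.99 to 8.38 in LR, with a difference of 0.10. General neuron markers (7 of 7) had one of 10.3 to 10.7 in HR and 10.2 to 10.7 in LR, with a difference of 0.14. Markers of deep cortical layers and subiculum, where NR4A2 is also known, were measured for 8 of 10 genes, at 7.49 to 7.63 in HR and 7.36 to 7.58 in LR. Those of pyramidal cells (6 of 7 measured) differed by -0.04. Markers that define hippocampal granule and pyramidal cells were thus present on these arrays, as were choroid plexus markers (5 of 7 measured, 6.47 to 7.96 in HR and 6.40 to 7.76 in LR). In bulk tissue fewer cells of a type and less RNA per cell cannot be told apart.

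The difference of the first NR4A2 probe set was 0.25 with the title number, 0.25 with the GC-rich background, 0.24 with the dentate granule markers, 0.23 with the deep layer markers and 0.25 with the neuron markers as a covariate, against 0.34 without one. The third NR4A3 probe set moved further, from 0.50 without a covariate to 0.15, 0.21, 0.23, 0.27 and 0.17 in the same order. It was the widest difference without a covariate and lay below both NR4A2 probe sets with the GC-rich background, the dentate granule markers or the neuron markers. The second NR4A3 probe set went from 0.29 to 0.15 with the GC-rich background, to 0.17 with the dentate granule markers and to 0.15 with the neuron markers, and the second NR4A2 probe set from 0.31 to 0.14 with the title number, each a move of over 1.5 times. NR4A1 moved the other way, from 0.03 ± 0.12 to 0.25 ± 0.14 with the title number, 0.19 ± 0.12 with the GC-rich background, 0.09 ± 0.13 with the dentate granule markers, 0.17 ± 0.13 with the deep layer markers and 0.21 ± 0.11 with the neuron markers (SE). The number of NR4A probe sets with an unadjusted p under 0.05, 4 without a covariate, was 1 with the title number, 2 with the GC-rich background, 3 with the dentate granule markers, 2 with the deep layer markers and 2 with the neuron markers, all higher in HR. Over all probe sets the share higher in HR with such a p moved too, from 7.78% to 1.62%, 3.58%, 3.03%, 1.65% and 4.52% in this order. With the first principal component (48.0% of the variance between arrays) as a covariate, 4 NR4A probe sets had such a p. The differences of the first NR4A2 and the third NR4A3 probe sets were then 0.31 and 0.35. Of all probe sets 3230 had such a p with that covariate, against 2750 without one. What part these array measures had in the group differences was not tested, and that of the title number can hardly be told apart from the group.

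**Figure D2:**
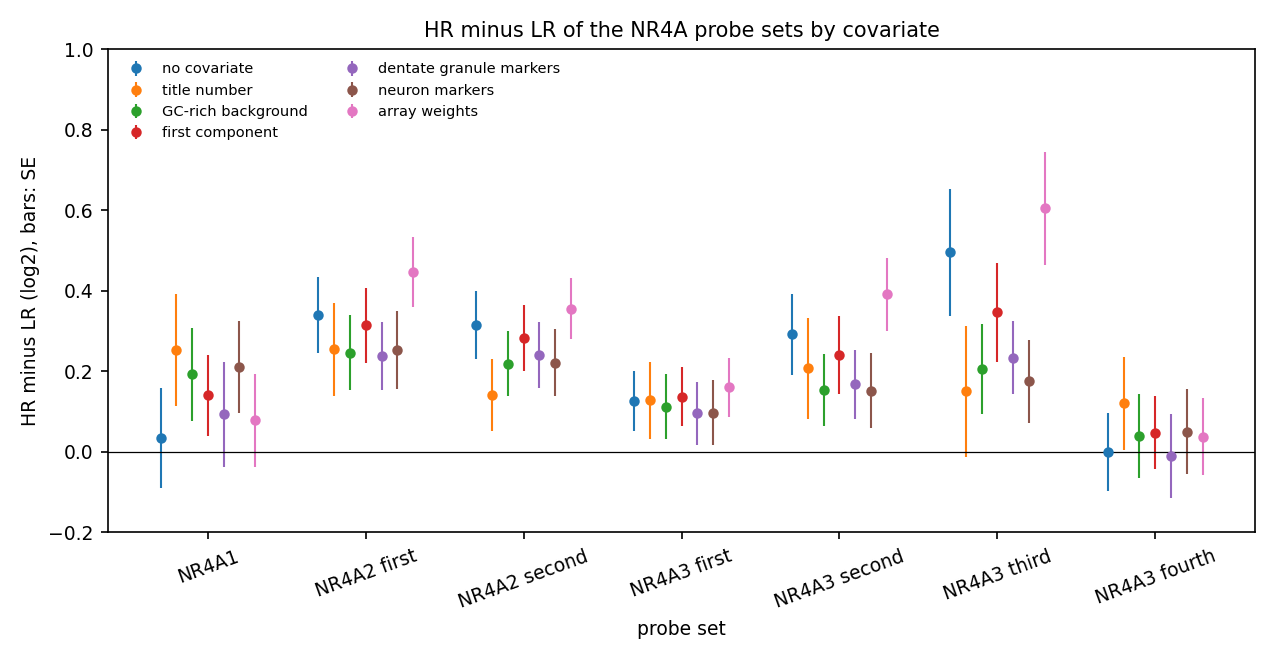
HR minus LR (vertical axis, log2, bars are SE from limma) of each NR4A probe set with no covariate, with 5 array measures as a covariate in turn and with array weights, over 10 HR and 10 LR arrays. Both NR4A2 probe sets stay between 0.14 and 0.45, while the third NR4A3 probe set runs from 0.15 to 0.60.

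Probe sets of 1 gene should vary together from array to array if they report the same transcripts, and this was examined with the group means taken out, so that the group difference plays no part. These 49 correlations, among the 7 probe sets and with array measures, were chosen after the values were seen, each over 20 arrays with a two-sided permutation test (100000 permutations of the arrays within groups) and Benjamini-Hochberg adjustment over the 49. The NR4A2 probe sets followed each other (r = 0.735, adjusted permutation p = 0.0064, rho = 0.744, adjusted p = 0.0041), within HR (r = 0.779) as within LR (r = 0.726) and without the 2 arrays farthest from the median (r = 0.691). Of the 6 pairs of NR4A3 probe sets, the second and the third followed each other most closely (r = 0.812, adjusted permutation p = 0.0020, rho = 0.752, adjusted p = 0.0033), and r was 0.667 without the 2 farthest arrays. The third and the fourth had r = -0.006 (adjusted permutation p = 0.980, rho = 0.053). The first and the fourth had r = 0.542 (adjusted permutation p = 0.049, rho = 0.448, adjusted p = 0.126), with r of 0.146 without the 2 farthest arrays, -0.054 within HR and 0.787 within LR, and from 0.388 to 0.600 with any 1 array left out. The remaining pairs had r of 0.478 (first with second), 0.344 (first with the third) and 0.226 (second with the fourth), and none of these passed the threshold in the adjusted permutation test.

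**Figure D3:**
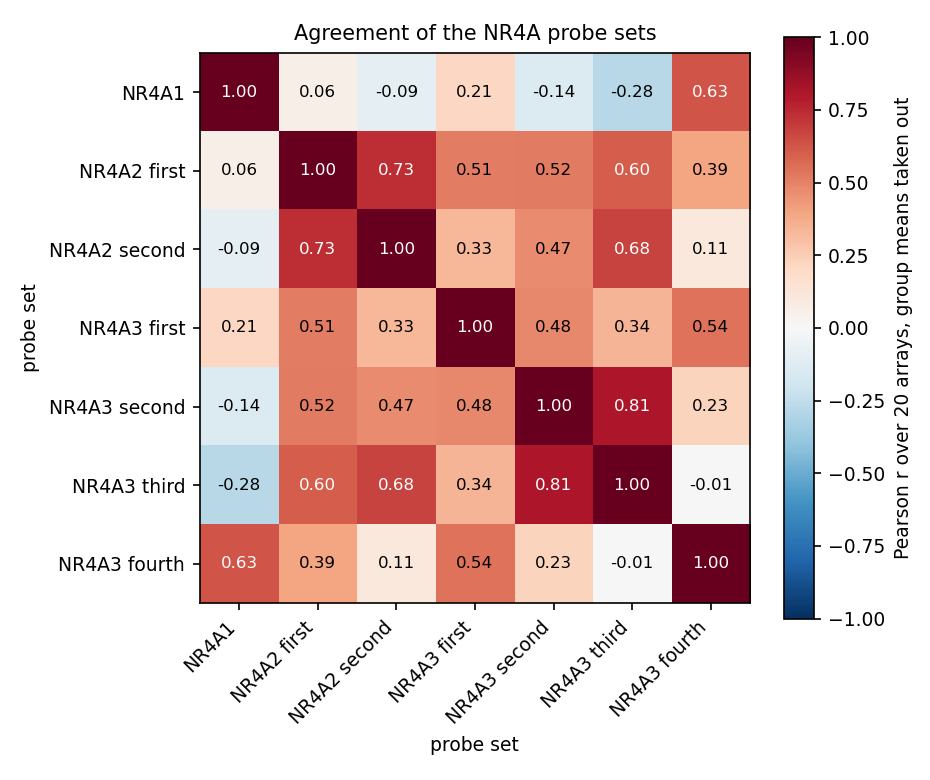
Pearson r between each pair of the 7 NR4A probe sets over 20 arrays with group means taken out, on a colour scale from -1 (blue) to 1 (red). NR4A2 (0.73) and the second and the third NR4A3 probe sets (0.81) form the closest pairs, and NR4A1 is closest to the fourth NR4A3 probe set (0.63).

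Between genes, NR4A2 varied with the second and the third NR4A3 probe sets on r, and on rho 1 of the 4 pairs passed the adjusted threshold. The first NR4A2 probe set had r = 0.523 with the second (adjusted permutation p = 0.039, rho = 0.463, adjusted p = 0.111). It had r = 0.604 with the third (adjusted permutation p = 0.020, rho = 0.579, adjusted p = 0.035). The second NR4A2 probe set had r = 0.679 with the third (adjusted permutation p = 0.0051, rho = 0.528, adjusted p = 0.058) and r = 0.472 with the second (adjusted permutation p = 0.049, rho = 0.414, adjusted p = 0.159). Without the 2 farthest arrays these were 0.424, 0.558, 0.607 and 0.603. NR4A1 varied with the fourth NR4A3 probe set (r = 0.626, adjusted permutation p = 0.043, rho = 0.668, adjusted p = 0.023), with r = 0.916 within HR and 0.569 within LR, and 0.554 without the 2 farthest arrays. The difference between the groups in r was not tested.

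With the brightest probe set of each gene 24 correlations were computed within and between the NR4A genes, 5 activity genes and 2 array measures. NR4A2 and NR4A3 had r = 0.515 (permutation p = 0.027, adjusted p = 0.099, rho = 0.471, adjusted p = 0.151), which missed the threshold, with r = 0.217 within HR, 0.690 within LR and 0.50 without the 2 farthest arrays. NR4A1 had r = 0.057 with NR4A2 (permutation p = 0.840, adjusted p = 0.877, rho = 0.068) and r = 0.207 with NR4A3 (permutation p = 0.426, adjusted p = 0.640, rho = 0.214), and r was 0.017 and 0.021 without the 2 farthest arrays. With the GC-rich background taken out, r of NR4A1 with NR4A2 was 0.441 (permutation p = 0.069, adjusted p = 0.199), with the dentate granule markers taken out 0.282 and with the first principal component taken out 0.257, and none of these passed the threshold. With the mean of all probe sets of a gene, r of NR4A2 with NR4A3 was 0.699 (adjusted permutation p = 0.016).

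The third NR4A3 probe set varied closely with the markers of dentate granule cells. Its r with their mean level was 0.877 (adjusted permutation p = 0.00024, rho = 0.854, adjusted p = 0.00049), the permutation p of 1e-05 being the smallest that 100000 permutations can give. It was alike within HR (0.881) and LR (0.874), was 0.844 without the 2 farthest arrays and ran from 0.834 to 0.917 with each array left out in turn. Among the single markers r was 0.87 with NEUROD1, a granule cell transcription factor, 0.78 with STXBP6, 0.75 with C1QL3 and 0.67 with PROX1, the homeobox factor that specifies granule cells, and -0.36 with C1QL2, so 1 of the 5 markers ran the other way.

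The same probe set also had r = 0.837 with the neuron markers (adjusted permutation p = 0.00098, rho = 0.815, adjusted p = 0.0017) and r = -0.798 with the GC-rich background (adjusted permutation p = 0.00024, rho = -0.749, adjusted p = 0.0040). With the first principal component, which held 48.0% of the variance between arrays, it had r = 0.681 (adjusted permutation p = 0.0083, rho = 0.683, adjusted p = 0.015). Without the 2 farthest arrays these were 0.847, -0.834 and 0.679. Within the neuron list the neurofilament gene NEFM (0.85) and the synaptic vesicle fusion gene SNAP25 (0.81) were high. RBFOX3, which encodes the nuclear antigen NeuN, was at -0.45 and GAP43 at -0.18, so both ran the other way. The third NR4A3 probe set also had r = 0.704 with the markers of astrocytes. With those of endothelium, microglia and oligodendrocytes it had -0.693, -0.661 and -0.644, and with those of pyramidal cells -0.073. The correlations with these other cell types were not tested. These array measures move together, and their parts in this pattern cannot be told apart here.

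The first NR4A2 probe set had r = 0.614 with the dentate granule markers (adjusted permutation p = 0.019, rho = 0.602, adjusted p = 0.030, with 0.540 within HR, 0.727 within LR, 0.525 without the 2 farthest arrays), and C1QL3 was the closest single marker at 0.76. The second NR4A2 probe set had 0.505 (adjusted permutation p = 0.043, rho = 0.459, adjusted p = 0.109) and the second NR4A3 probe set 0.686 (adjusted permutation p = 0.0064, rho = 0.660, adjusted p = 0.017). NR4A1 stood apart with r = -0.258 with the granule markers and -0.600 with the neuron markers (adjusted permutation p = 0.029, rho = -0.577, adjusted p = 0.035). With the markers of pyramidal cells it had r = 0.558 and with those of interneurons 0.377, and these were not tested. Among the granule markers C1QL2 ran against its list, at -0.16 (first NR4A2), -0.38 (second NR4A2), -0.32 (second NR4A3) and 0.53 (NR4A1). In the neuron list RBFOX3 (0.28) and GAP43 (0.06) did so for NR4A1, and for the second NR4A3 probe set they were at -0.24 and 0.07. Without the 2 farthest arrays the second NR4A2 and the second NR4A3 probe sets had r of 0.496 and 0.547 with the granule markers, and NR4A1 had -0.712 with the neuron markers. The GC-rich background and the neuron markers moved with some of these probe sets too. The second NR4A3 probe set had r = 0.603 with the neuron markers (adjusted permutation p = 0.020, rho = 0.612, adjusted p = 0.025) and -0.627 with the GC-rich background (adjusted permutation p = 0.020, rho = -0.531, adjusted p = 0.059). The second NR4A2 probe set had -0.540 with the GC-rich background (adjusted permutation p = 0.043, rho = -0.454, adjusted p = 0.120), and NR4A1 had 0.570 (adjusted permutation p = 0.033, rho = 0.635, adjusted p = 0.022). For NR4A1 the adjusted permutation p was 0.054 over the family of 24 correlations, past the threshold in 1 family and not in the other. Without the 2 farthest arrays these were 0.446, -0.440, -0.342 and 0.586. The first NR4A2 probe set missed the threshold with the neuron markers (r = 0.406, adjusted permutation p = 0.170). It also missed it with the GC-rich background (r = -0.464, adjusted permutation p = 0.089). The second NR4A2 probe set missed it with the neuron markers (r = 0.502, adjusted permutation p = 0.072). The first and the fourth NR4A3 probe sets had r of 0.243 and 0.059 with the granule markers, and neither passed the threshold with any of the 4 array measures.

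**Figure D4:**
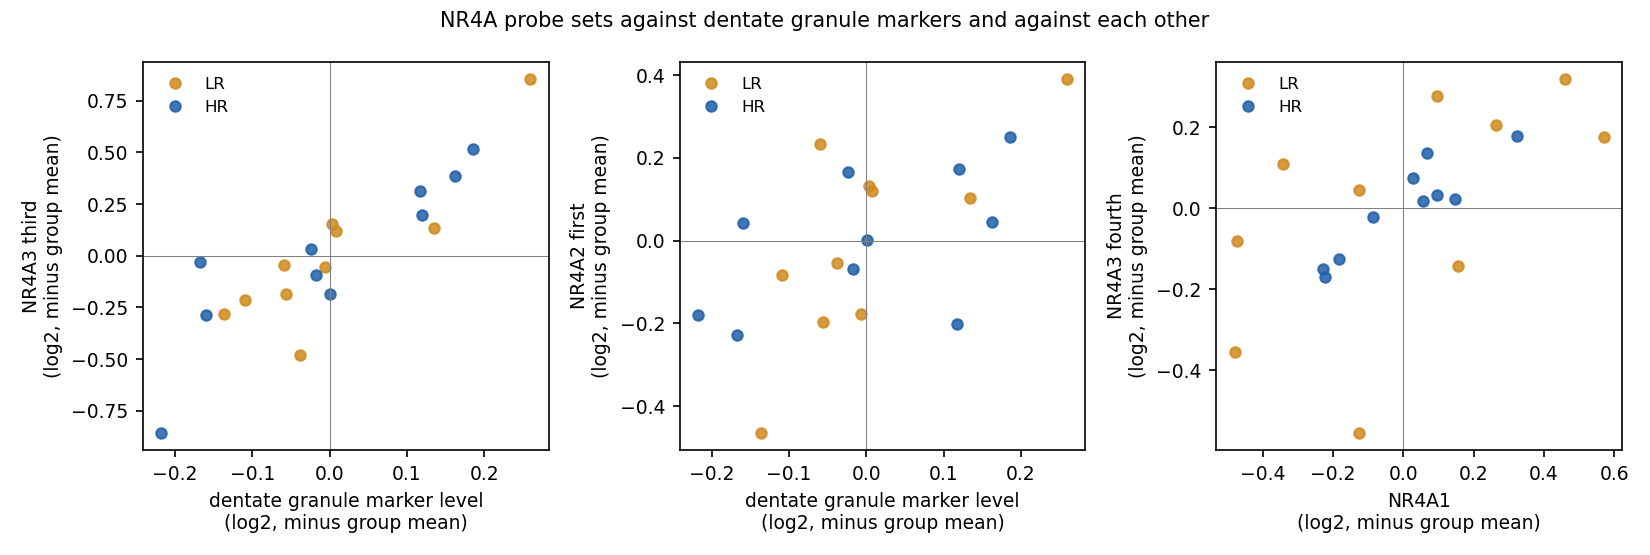
Values over 20 arrays (log2, minus the mean of each array's own group; LR orange, HR blue): the third NR4A3 probe set and the first NR4A2 probe set against the mean level of 5 dentate granule markers, and the fourth NR4A3 probe set against NR4A1. Points lie along a rising line in the left panel (r = 0.877) and scatter more in the middle (r = 0.614) and right (r = 0.626) panels.

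The other activity genes share their induction by calcium and cyclic AMP with the NR4A genes. Of 23 listed, 16 were measured by a kept probe set, and FOSB, FOSL2, EGR1, NPAS4, IER2, BDNF and HOMER1 were not. With HR against LR 0 of the 16 passed the adjusted threshold in limma, 1 had an unadjusted p under 0.05 (PTGS2, the inducible prostaglandin synthase, higher in HR by 0.33 ± 0.12, adjusted p = 0.337) against 7.78% of all probe sets higher in HR, and the median difference was -0.05, against -0.01 over all probe sets. The next were RGS2, a G protein regulator, at -0.17 ± 0.08 (adjusted p = 0.434), ARC, whose product acts at synapses on AMPA receptor uptake, at -0.17 ± 0.12 (adjusted p = 0.559) and EGR4 at -0.15 ± 0.11 (adjusted p = 0.571), while FOS differed by 0.05 ± 0.12 (adjusted p = 0.872).

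NR4A1 went with EGR4, a zinc finger factor of the early growth response family (r = 0.613, permutation p = 0.0022, adjusted p = 0.017, rho = 0.605, adjusted p = 0.027). Its r was 0.567 within HR, 0.733 within LR and 0.721 without the 2 farthest arrays. NR4A1 had r = 0.627 with JUNB (permutation p = 0.011, adjusted p = 0.054, rho = 0.695, adjusted p = 0.025, and 0.568 without the 2 farthest arrays), which missed the threshold on r. It had r = 0.510 with FOS (permutation p = 0.029, adjusted p = 0.099, rho = 0.556, adjusted p = 0.071). JUNB and FOS encode subunits of one transcription factor. Within HR these were 0.149 and 0.006 and within LR 0.775 and 0.765. NR4A1 also followed the first principal component (r = -0.636, permutation p = 0.0019, adjusted p = 0.017, rho = -0.644, adjusted p = 0.025, and -0.676 without the 2 farthest arrays). Its r with EGR4 was 0.176 (adjusted permutation p = 0.678) once that component was taken out and 0.386 (adjusted permutation p = 0.264) once the GC-rich background was. With JUNB the same steps left r = 0.293 (adjusted permutation p = 0.485) and 0.331 (adjusted permutation p = 0.264), and with FOS 0.198 (adjusted permutation p = 0.619) and 0.277 (adjusted permutation p = 0.372). Without LR replicate 2, the array highest in NR4A1 and EGR4, r of these genes was 0.515 (adjusted permutation p = 0.073).

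NR4A2 went against ARC (r = -0.713, permutation p = 0.0010, adjusted p = 0.017, rho = -0.656, adjusted p = 0.025), with r = -0.510 within HR and -0.814 within LR. LR replicate 3, lowest in NR4A2 at 8.29, had the highest ARC value of all arrays at 7.62, where ARC ran from 6.43 over 6.81 to 7.19 in HR and from 6.54 over 6.90 to 7.62 in LR. Without the 2 arrays farthest from the median r was -0.606 (adjusted permutation p = 0.081) and without LR replicate 3 it was -0.582 (adjusted permutation p = 0.062), so that passing the threshold rested on those arrays. The second ARC probe set, which is dimmer, had r = -0.353 with NR4A2. The remaining activity genes tested with NR4A2 had r of 0.076 (FOS), -0.384 (JUNB), 0.115 (EGR4) and -0.113 (DUSP1). Those with NR4A3 ran from -0.230 (ARC) to 0.264 (EGR4), and none of them passed the adjusted threshold in the permutation test.

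**Figure D5:**
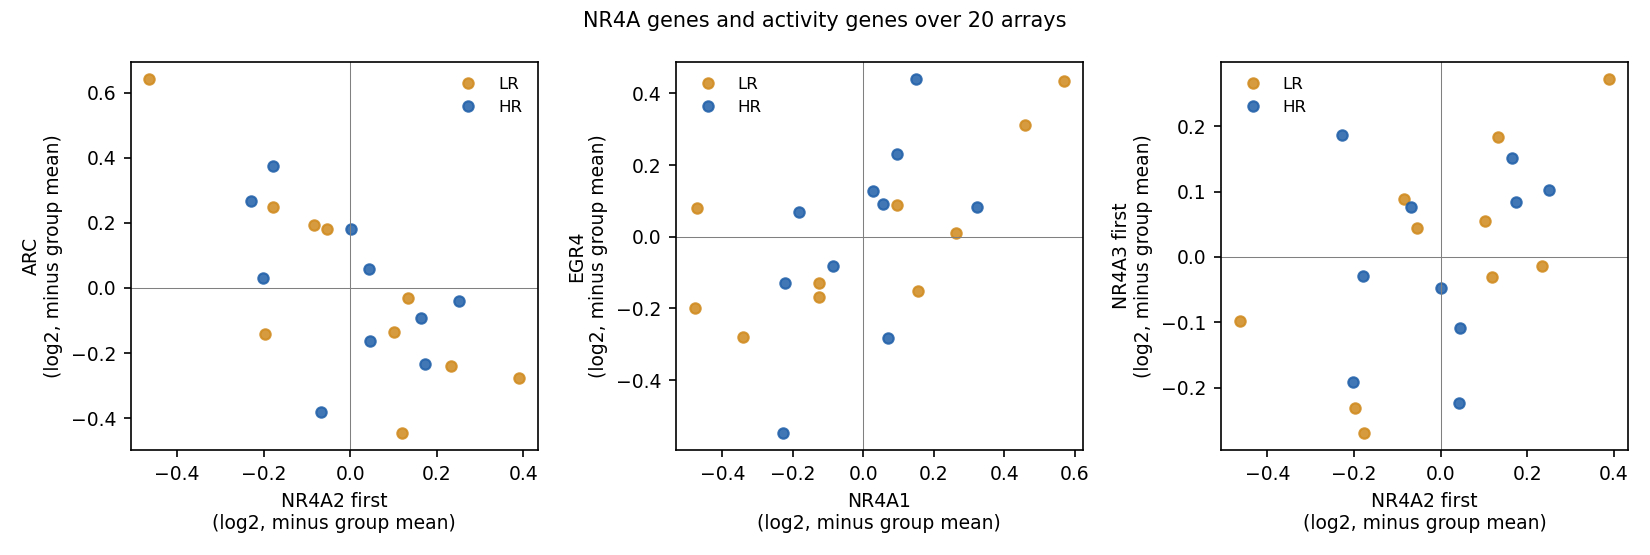
Values over 20 arrays (log2, minus the mean of each array's own group; LR orange, HR blue) of ARC against NR4A2, EGR4 against NR4A1 and NR4A3 against NR4A2, each gene by its brightest probe set. The left panel falls (r = -0.713, LR replicate 3 at the upper left), and the middle (r = 0.613) and right (r = 0.515) panels rise.

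Among the genes upstream of NR4A transcription, the kinases and factors of CREB, MEF2 and calcium signalling, 20 of 25 were measured. With HR against LR 0 passed the adjusted threshold in limma and 5 had an unadjusted p under 0.05, all higher in HR, against 7.78% of all probe sets. They were the coactivator EP300 (0.21 ± 0.06, adjusted p = 0.292, both of its probe sets higher) and the CREB-pathway kinase SIK2 (0.17 ± 0.06, adjusted p = 0.339). The others were the protein kinase A regulatory subunits PRKAR1A (0.28 ± 0.11, adjusted p = 0.370) and PRKAR2B (0.40 ± 0.16, adjusted p = 0.372), and the catalytic subunit PRKACB (0.43 ± 0.20, adjusted p = 0.430). CREB1 itself differed by 0.08 ± 0.11, and the median of the list was 0.03, against -0.01 over all probe sets.

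Of the partners and cofactors 7 of 9 were measured and 0 passed the adjusted threshold in limma. The corepressor NCOR1 was higher in HR by 0.34 ± 0.11 (unadjusted p = 0.0057, adjusted p = 0.311), with 3 of 3 probe sets higher, and the retinoid X receptor gene RXRB differed by -0.26 ± 0.10 (unadjusted p = 0.018, adjusted p = 0.363), with 0 of 4 higher. These were 1 higher and 1 lower of 7, against 7.78% and 3.74% of all probe sets. The other retinoid X receptors were at -0.09 ± 0.11 (RXRA) and -0.10 ± 0.11 (RXRG), the glucocorticoid receptor NR3C1, which can bind NR4A proteins and oppose them, at 0.20 ± 0.12, and the corepressor subunits RCOR1 and KDM1A at 0.01 ± 0.07 and 0.04 ± 0.06. The median was 0.01, against -0.01 over all probe sets.

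Of the genes described elsewhere as NR4A targets, mostly in dopamine neurons, 7 of 13 were measured, 0 passed the adjusted threshold and 0 had an unadjusted p under 0.05 in limma, against 7.78% higher and 3.74% lower over all probe sets. The median was -0.07, against -0.01 over all probe sets, and 6 of the 7 had a negative difference. The 4 with the smallest p were DDC, which makes dopamine from its precursor (-0.15 ± 0.10), SPP1, which encodes osteopontin (-0.12 ± 0.10), SLC18A2, the vesicular monoamine transporter (-0.10 ± 0.09), and RET, a receptor tyrosine kinase (-0.07 ± 0.08). TH and SLC6A3, the best known of them, were not measured by a kept probe set.

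The genes whose values over the 20 arrays were most like each NR4A gene were found by Pearson r with group means taken out, among 10312 other genes, as a description. For NR4A2 they were TOX, a nuclear high mobility group protein (0.82), SLC35F1, a solute carrier (0.78), PRKCB, protein kinase C beta (0.76), SATB1, a chromatin organiser (0.76), and C1QL3, a secreted synaptic protein (0.76). The lowest were ARC (-0.71) and the amino acid transporter SLC7A9 (-0.73). TOX, SLC35F1 and SATB1 had group differences of 0.31 ± 0.11, 0.33 ± 0.09 and 0.30 ± 0.09, those of PRKCB and C1QL3 being 0.03 ± 0.06 and 0.00088 ± 0.08. NR4A3 came after 324 genes in the order of likeness to NR4A2, and NR4A1 after 4404.

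For NR4A1 the closest were TMEM206 (0.91), a chloride channel, GRWD1 (0.90), CACNB1 (0.88), a calcium channel subunit, HRC (0.85), a calcium-binding protein, and GIT1 (0.85). The lowest were SSBP1 (-0.80), a mitochondrial DNA-binding protein, and USP40 (-0.83). With the lowest and the highest 5% of all genes left out, r ran from -0.61 to 0.69 with NR4A1, against -0.36 to 0.47 with NR4A2 and -0.34 to 0.34 with NR4A3. In the order of likeness to NR4A1, 5917 genes stood above NR4A2. For NR4A3 the closest were TNFAIP3 (0.72), an inhibitor of NF-kB signalling, ERI2 (0.67), LOC100524066 (0.66), COMTD1 (0.65) and IMPDH1 (0.63), an enzyme of guanine nucleotide synthesis. These genes were dim, with means from 5.79 (LOC100524066) to 6.49 (COMTD1), not far above the filter level of 5.53. Dim too were HRC (5.78) and SLC7A9 (5.70). The lowest were HOOK3 (-0.68), a microtubule adaptor, and SPP1 (-0.70). NR4A2 came after 59 genes and NR4A1 after 1791 in the order of NR4A3, and each list shares the arrays and their common background with the others.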

How the data were processed

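Hippocampus RNA of 20 pigs was hybridized to porcine Snowball arrays, 1 array per animal. The authors made the deposited values, on a log2 scale, by RMA in Expression Console, and the submitters' processing notes name GCOS 1.1.1. RMA gives all arrays 1 distribution and so hides any shift common to most transcripts. The 20 array columns all matched samples (0 left unused). After removal of 123 control probe sets, those of the remaining 47722 with a mean above the median of the means (5.53) were kept. HR and LR were compared on the log2 scale with limma 3.58.1 (R 4.3.3), with Benjamini-Hochberg adjustment over 23861 probe sets at 0.05. Nothing says whether animals were littermates, so p-values measure the spread between these arrays. Correlations used NumPy 2.4.6, with the ranks for rho from SciPy 1.17.1. The limma test was tried on the array values with group means taken out, arrays reordered and known differences added to some probe sets. The permutation test was tried on simulated pairs.

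The members and gene lists were chosen with earlier results of these data known. Named genes were the members, up to 4 genes of each list with the smallest p, FOS, ARC, RXRA and the correlation partners, and for each member the 5 genes of highest and the 2 of lowest r. CREB1, PRKACB, TH, SLC6A3, NR3C1, RCOR1, KDM1A and the single cell type markers were named after their values were seen. The brightest probe set stood for each gene. Alternatives were no filter on dim probe sets, array measures or markers as covariates, array weights, the mean of all probe sets and each array left out. Protein, promoter and probe sequences were not used here. Arrays carry no read depth, and their number limits the precision.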

Additional observations from a re-analysis of the deposited data

Results flagged for a closer look

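Of 14 groups of 10 arrays examined, 2 held an array far from the others, meaning that its gap to the nearest array divided by the group's range was above Dixon's critical value for groups of 10. HR replicate 1 was the lowest HR array on the second NR4A3 probe set, with a ratio of 0.506. LR replicate 10 was the highest LR array on the third NR4A3 probe set, with a ratio of 0.526. Chance gives about 1 such group in 20. Without HR replicate 1 the differences of the second and the third NR4A3 probe sets were 0.36 and 0.59.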

How the results depend on the processing

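No group difference of an NR4A probe set moved by more than 1 SD of the arrays under any alternative. That limit is loose, because the SD of the arrays is wider than the SE of a difference. Modelling the title number shrank the third NR4A3 difference from 0.50 ± 0.16 (SE) to 0.15 ± 0.16. It shrank the second NR4A2 difference from 0.31 ± 0.08 to 0.14 ± 0.09. The first NR4A2 probe set stayed between 0.23 (deep layer markers as a covariate) and 0.45 (array weights). With array weights 947 of all 23861 probe sets passed the adjusted threshold, against 0 without weights and 1 with the first principal component as a covariate. Among the 947 were 4 of the 7 NR4A probe sets, both of NR4A2 and the second and the third of NR4A3. Probe sets of 1 gene varied together here, and the family was selected on this contrast, so this count is a description only. Probe sets with an unadjusted p under 0.05 numbered 4495 with no filter on dim probe sets, 675 with the title number, 1654 with the GC-rich background and 5611 with array weights, against 2750, and the activity genes with one numbered 2, 2 and 3 with the GC-rich background, the first principal component and array weights, against 1. The number of NR4A probe sets with one was 4 with each array left out, or 5 without LR replicate 10. Over all probe sets that number ran from 1888 without LR replicate 1 to 4497 without HR replicate 1. It was 3800 without LR replicate 10. Without HR replicate 1, 110 of all probe sets but 0 of NR4A passed the adjusted threshold and 4497 had an unadjusted p under 0.05. The NR4A1 difference ran from -0.02 without LR replicate 5 to 0.25 once the title number entered the model.

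The r of NR4A2 with NR4A3 passed the adjusted threshold with group means left in (0.613, adjusted permutation p = 0.026), with the mean of all probe sets (0.699) and without HR replicate 3, and ran from 0.394 to 0.647 with each array left out. The r of NR4A1 with NR4A2 was -0.014 with the mean of all probe sets and 0.441 with the GC-rich background taken out, and ran from -0.092 to 0.156 with each array left out, negative without LR replicate 2 or LR replicate 5. The r of NR4A2 with ARC was -0.613 with the GC-rich background and -0.563 with the dentate granule markers taken out (adjusted permutation p = 0.075 and 0.056), and the r of NR4A1 with the first principal component was -0.344 with the GC-rich background taken out (adjusted permutation p = 0.264). Both missed the threshold without LR replicate 2 as well (-0.696 and -0.603, adjusted permutation p = 0.055 and 0.056). The r of NR4A1 with JUNB passed with group means left in (0.614) and with the dentate granule markers taken out (0.606). It also passed without HR replicate 7 or HR replicate 9. With the mean of all probe sets this r stayed at 0.627, as NR4A1 has 1 probe set, and only the adjustment over the family changed (adjusted permutation p = 0.041). It was 0.293 with the first principal component and 0.331 with the GC-rich background taken out. The r of NR4A1 with FOS passed without HR replicate 7 or HR replicate 9. The causes were not tested. No paired analysis was possible because the replicate numbers were given in accession order and pair nothing.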
